A study of Mus musculus with 8 samples.

Results

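Collagen genes were read from a table of RNA read counts for cultured endothelial cells of mouse liver, which form the inner lining of its vessels. Members were all rows whose Ensembl identifier carries a symbol of the form Col, digits, a, digits. The rule found 44 genes of the 52636 rows, and 33 of them had enough reads to be tested among 15698 genes. The study's 4 groups had 2 libraries each. WT cells and cells labelled dKO were kept without cytokines (control) or given IL1B and TNFA, a pair of inflammatory cytokines, for the last 16 h. The labels do not expand dKO. The series describes deletion of Erg and Fli1, genes for transcription factors of the ETS family, by 48 h of 4-OHT (the tamoxifen metabolite that activates inducible Cre) and then 7 days of culture. The labels place 4-OHT in the culture and also in mice, and do not say whether WT cells received it or which Cre driver was used. Cells in all 4 groups were sorted live as CD31-positive, VE-cadherin-positive and CD45-negative, and the labels do not say whether the 2 libraries of a group come from separate animals or cultures. Every p-value here reflects nothing beyond how far such libraries lie apart.

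Collagens are secreted proteins whose alpha chains wind around each other into a helix, and each gene encodes 1 alpha chain. Fibrillar collagens build the fibres of connective tissue and scar, and in injured liver hepatic stellate cells are known as their main source. Type IV collagen forms the sheet-like network of basement membranes on which most endothelium rests, type VI collagen forms beaded filaments between cells and fibres, and fibril-associated collagens coat fibres without forming them. Multiplexins sit in the basement membrane zone, short-chain collagens form lattices beneath some endothelia, and type VII collagen anchors basement membranes to the tissue below.

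The library checks touch every result below. Library totals ran from 23009062 to 26944030 counts. Erg was at 196 and 186 CPM (counts scaled to library size) in WT control and at 40.1 and 91.3 CPM in dKO control, replicate 1 first. Fli1 was at 161 and 177 CPM in WT control and at 21.9 and 62.5 CPM in dKO control. Neither difference passed edgeR's quasi-likelihood test after Benjamini-Hochberg adjustment (adjusted p = 0.0864 for Erg and 0.0678 for Fli1), although no dKO library overlapped a WT library. DESeq2, a second test, called both lower in dKO control (DESeq2 adjusted p = 0.00487 for Erg and 0.00104 for Fli1). The dKO replicate 2 libraries stood apart: they kept more Erg and Fli1 and held both the female transcript Xist (224 and 171 CPM) and the Y-linked transcript Ddx3y (90.6 and 117 CPM), while each other library held 1 of the pair at 110 CPM or more and the other below 1.32 CPM. By these transcripts the 2 libraries of a group are not repeats of 1 RNA sample. Between the 2 dKO control libraries the median absolute log2 ratio was 0.75 over the 33 tested collagen genes and 0.26 over all tested genes. In WT control these medians were 0.46 and 0.16. The all-gene medians came from log2 CPM with a small count added, which shrinks the ratios of scarce genes, and the collagen medians did not. The medians of the 2 sets are therefore not strictly alike.

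Markers of cell types moved with genotype. All 10 endothelial markers were at 1 CPM or more in each group, and their summed level was 9807 to 10069 CPM in WT control and 2070 to 3691 CPM in dKO control, and 5481 to 5814 and 1745 to 2575 CPM after cytokines. Of 15 markers of stellate cells, pericytes and fibroblasts, chosen without collagen genes, 7 reached 1 CPM in each group. Their sum, most of it Dcn, was 9274 to 9442 CPM in WT control and 12821 to 15568 CPM in dKO control, and 9972 to 10842 and 14516 to 17338 CPM after cytokines. Lrat, which defines quiescent stellate cells, had 0 counts in both control groups, whereas Pdgfra, a receptor of fibroblasts, was at 2.07 and 3.67 CPM in WT control and at 933 and 615 CPM in dKO control. The list moved in both directions: Thy1 was at 90.9 and 128 CPM in WT control and at 6.70 and 31.6 CPM in dKO control, and Rgs5 and Hand2 were also below every WT control library in dKO control. Leukocyte markers summed to at most 8.36 CPM in any library, with Ptprc at 0 counts in all 4 control libraries. Hepatocyte markers summed to 0.506 to 0.517 CPM in WT control and to 105 to 226 CPM in dKO control. With cytokines their sums were 0.0441 to 0.432 CPM in WT and 81.8 to 118 CPM in dKO. In dKO nearly all of this was Ahsg, and Alb had 0 counts in both control groups. Markers of bile duct and mesothelium summed to 1.11 to 3.07 CPM in WT control and to 18.4 to 20 CPM in dKO control. With cytokines they summed to 1.81 to 2.55 CPM in WT and 18.9 to 19.6 CPM in dKO. In dKO nearly all of this was Sox9, Wt1 and Krt19. Epcam, Krt7, Msln and Upk3b were below 1 CPM in every library, with lower means in dKO control than in WT control. The part of these shifts in the collagen results was not tested, and in bulk RNA fewer cells of a type and less RNA per cell cannot be told apart.

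Several collagen genes sit side by side in the genome (GRCm38). Col4a3 and Col4a4 on chromosome 1 run in opposite directions from starts that are 71 bases apart, and these were the type IV chains that passed by edgeR in both genotype comparisons. Col4a1 and Col4a2 on chromosome 8 also run apart and overlap by 22 bases, and Col4a5 and Col4a6 on chromosome X start 1308 bases from each other. Below are the whole gap between Col4a4 and Col4a3 and the 150 bases before 4 genes that are described at length: Col3a1, the collagen with the highest per-length level in dKO control, Col6a2 and Col6a3, type VI chains that differed from each other, and Col8a1, the collagen gene with the largest log2 fold change by cytokines in WT. Sequences are from RefSeq on the GRCm38 build, 5′ to 3′ on the strand of the named gene, and capitals mark GGAA or its complement TTCC, the core of sites that ETS factors bind.
Col4a4 to Col4a3 gap, chr1:82586850-82586920, minus strand: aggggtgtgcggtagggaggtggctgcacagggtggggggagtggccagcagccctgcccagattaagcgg
Col3a1, chr1:45311388-45311537, plus strand: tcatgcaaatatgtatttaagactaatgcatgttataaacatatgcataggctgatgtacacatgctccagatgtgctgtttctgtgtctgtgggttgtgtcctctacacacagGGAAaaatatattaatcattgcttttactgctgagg
Col6a2, chr10:76623631-76623780, minus strand: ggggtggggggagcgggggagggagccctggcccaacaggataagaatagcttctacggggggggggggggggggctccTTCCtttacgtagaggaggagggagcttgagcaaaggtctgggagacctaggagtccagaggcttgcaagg
Col6a3, chr1:90843972-90844121, minus strand: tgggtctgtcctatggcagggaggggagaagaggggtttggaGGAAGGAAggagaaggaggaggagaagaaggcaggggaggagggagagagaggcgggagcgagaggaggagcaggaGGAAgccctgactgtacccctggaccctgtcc
Col8a1, chr16:57754738-57754887, minus strand: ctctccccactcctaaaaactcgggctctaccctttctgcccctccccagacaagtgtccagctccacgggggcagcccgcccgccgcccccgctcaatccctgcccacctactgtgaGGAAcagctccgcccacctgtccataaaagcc

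The gap between Col4a4 and Col4a3 held 0 of these cores, the Col6a3 stretch held 3 and the other stretches held 1 each, and none of the printed bases is annotated as exon. Over longer windows, from 250 bases before to 50 after each RefSeq gene start, a match was found for 35 of the 44 collagen genes, in 38 windows. All 38 held GGAA on either strand, with a median of 3 cores, which is also the median over 32851 windows of all genes, where 96% held 1 or more. The longer motif CCGGAA, which contains the core, was in 0 of the 38 collagen windows and in 14.9% of all windows. TATAAA, the core of the TATA box, was in 5 of 38 and in 13.6% of all. These matches are letters in a window and no measure of binding.

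Without cytokines, 6 of 10 tested fibrillar genes and all 3 tested beaded-filament genes were higher in dKO, and the 2 abundant basement membrane chains were not shown to differ. Of the 33 tested collagen genes, 15 were higher in dKO control than in WT control and 1 was lower at an adjusted p under 0.05 (edgeR), and their median log2 fold change was 1.31. Of all genes tested, 13.4% were higher and 9.66% lower, and the median over all genes was 0.02. The calls were 6 higher and 1 lower among 10 tested fibrillar genes, 2 higher among 6 type IV genes, 3 higher among 3 tested type VI genes, 3 higher among 6 tested fibril-associated genes and the single type VII gene. None of the 2 multiplexins, 4 transmembrane genes or the 1 tested short-chain gene passed by edgeR. DESeq2 called 21 of the 33, 19 higher and 2 lower, beside 15.4% and 13.2% of all genes. Its calls added Col4a5, Col4a6, Col14a1 and Col8a1 as higher and Col23a1 as lower. Fewest collagen genes passed when either WT control library was left out, the lone WT library then being assumed to vary like the other groups. The count fell less without dKO control replicate 1 or either WT cytokine library. Calls over all genes fell in the same fits. Col1a2, Col5a1, Col4a4 and Col16a1 kept their calls in each fit that left out 1 library. A further setting, chosen after the data were seen, left out both dKO replicate 2 libraries. Each dKO group then held 1 library, so the spread in that setting came from the WT libraries alone.

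With cytokines in both genotypes, 16 of the 33 were higher in dKO and 0 were lower, with a median log2 fold change of 1.42. Of all genes, 18.6% were higher and 15.4% lower, with a median of 0.01. Beside the 0 lower genes by edgeR, 1 gene that was lower, Col11a1, had an unadjusted p under 0.05. DESeq2 called 18 higher, beside 19.9% of all genes, and 1 lower, Col4a2, beside 17.9% of all genes. The calls were 5 fibrillar, 3 type IV, 3 type VI and 3 fibril-associated genes, with Col8a1 and Col7a1. Same-numbered libraries of a genotype deviated together, so the 2 genotype comparisons are given side by side and not counted as separate support. The count fell to 8 without either WT cytokine library, 7 calls (Col1a1, Col1a2, Col5a3, Col4a4, Col6a3, Col16a1 and Col20a1) held in all 8 fits that left out 1 library, and the count was 18 without both dKO replicate 2 libraries (16 higher and 2 lower, beside 20.9% and 20.2% of all genes). With no filter on low counts, Col3a1 and Col12a1 no longer passed without cytokines, nor did Col3a1, Col4a5, Col6a2, Col8a1 and Col12a1 with them. The filter on low counts matters for reading both counts. In scaled CPM, 29 of the 33 genes reached its level in the WT control libraries, and Col9a2, Col13a1, Col17a1 and Col25a1 did not. The filter itself used unscaled library totals, on which Col9a2 (11 and 21 counts) and Col17a1 (20 and 12 counts) also reached its level. In the WT cytokine libraries 30 reached it, and Col9a2, Col20a1 and Col25a1 did not, so Col20a1 with cytokines was tested through its level elsewhere.

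**Figure D1:**
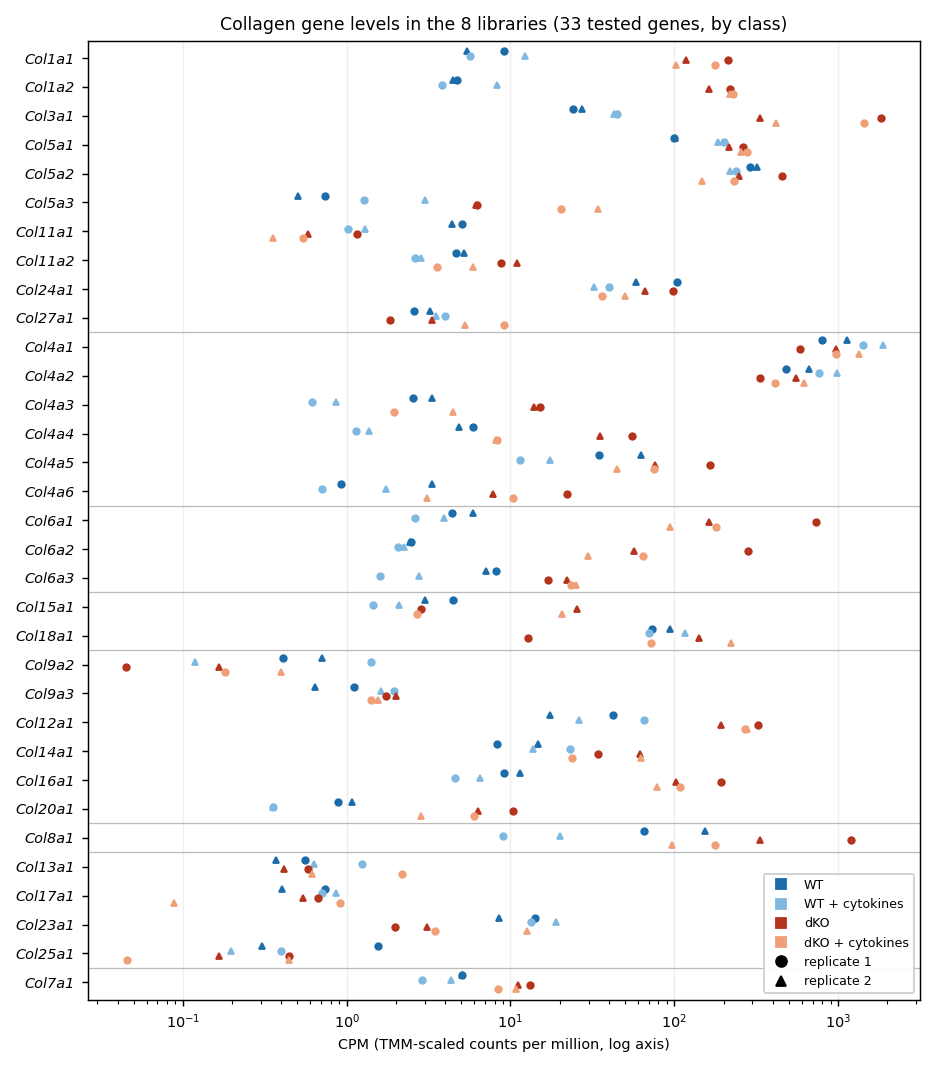
Level of each of the 33 tested collagen genes in the 8 libraries, in CPM on a log axis, grouped by class from fibrillar at the top to type VII at the bottom. Colours mark the group and circles and triangles mark replicate 1 and 2. For Col1a1, Col1a2, Col6a1 and Col6a2 all 4 dKO libraries lie far to the right of all 4 WT libraries, while for Col4a1 and Col4a2 the groups lie close together.

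Col1a1 and Col1a2 encode the chains of type I collagen, the main collagen of scar and bone. Col1a1 (ENSMUSG00000001506, chr11:94936224-94953042) was at 9.19 and 5.43 CPM in WT control, 5.64 and 12.2 in cytokine-treated WT, 213 and 117 in dKO control and 178 and 103 in cytokine-treated dKO. Every dKO library stood above every WT library. The log2 fold change of dKO over WT was 4.50 ± 0.58 (SE, n = 2 libraries a group; edgeR adjusted p = 0.00693) without cytokines and 3.97 ± 0.57 (adjusted p = 0.00621) with them. Col1a2 (ENSMUSG00000029661, chr6:4504814-4541544) was at 4.73 and 4.45 CPM in WT control, 3.84 and 8.32 in cytokine-treated WT, 218 and 163 in dKO control and 230 and 220 in cytokine-treated dKO. It too did not overlap, and its log2 fold change was 5.37 ± 0.39 (edgeR adjusted p = 0.00147) without and 5.20 ± 0.39 (adjusted p = 0.00128) with cytokines. On the per-length scale (RPKM, reads per kilobase of exon scaled to library size), the ratio of Col1a1 to Col1a2 was 3.68 and 2.31 in WT control. It was lower in dKO control, at 1.85 and 1.36. The exon lengths used were 6563 bases for Col1a1 and 12426 for Col1a2, and the distance of the ratio from 1 depends on them. With cytokines that ratio was 2.79 and 2.78 in WT and 1.47 and 0.888 in dKO.

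Col3a1 encodes type III collagen, which forms the fine reticular fibres of soft organs. It (ENSMUSG00000026043, chr1:45311538-45349706) was at 24.1 and 27.2 CPM in WT control, 44.7 and 42.8 in cytokine-treated WT, 1831 and 332 in dKO control and 1449 and 419 in cytokine-treated dKO. The groups did not overlap, but dKO replicate 1 was far above replicate 2, by a log2 ratio of 2.46 in dKO control. Its log2 fold change was 5.40 ± 1.03 (edgeR adjusted p = 0.0189) without and 4.41 ± 0.98 (adjusted p = 0.0204) with cytokines. Without dKO control replicate 1 the first value was 3.69. The first call was lost without either WT control library (adjusted p up to 0.116), and the second without either WT cytokine library or dKO cytokine replicate 1 (up to 0.122).

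The type V chains, which start fibres and set their width, did not move together. Col5a1 (ENSMUSG00000026837, chr2:27886425-28039514) was at 99.3 and 101 CPM in WT control, 200 and 185 in cytokine-treated WT, 263 and 216 in dKO control and 280 and 255 in cytokine-treated dKO. Its log2 fold change was 1.26 ± 0.12 (edgeR adjusted p = 0.0027) without cytokines and 0.47 ± 0.12 (adjusted p = 0.027) with them, and all dKO libraries lay above all WT libraries. The second call held in 3 of the 8 fits that left out 1 library. Col5a3 (ENSMUSG00000004098, chr9:20770050-20815067), another type V chain, was at 0.739 and 0.506 CPM in WT control, 1.28 and 3.02 in cytokine-treated WT, 6.26 and 6.15 in dKO control and 20.4 and 34.3 in cytokine-treated dKO. The genotypes did not overlap, with a log2 fold change of 3.31 ± 0.49 (edgeR adjusted p = 0.00826) without and 3.66 ± 0.46 (adjusted p = 0.00381) with cytokines. Col5a2, the usual partner of Col5a1, was at 291 and 319 CPM in WT control and at 452 and 248 in dKO control. The 2 groups overlapped, and the log2 fold change was 0.20 ± 0.32 (edgeR adjusted p = 0.671). With cytokines Col5a2 was at 238 and 220 CPM in WT and at 231 and 148 in dKO, with a log2 fold change of -0.27 (adjusted p = 0.526).

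Type XI collagen, best known from cartilage, gave calls in opposite directions. Col11a1 (ENSMUSG00000027966, chr3:114030540-114220718) was at 5.06 and 4.38 CPM in WT control, 1.01 and 1.3 in cytokine-treated WT, 1.16 and 0.582 in dKO control and 0.545 and 0.353 in cytokine-treated dKO. It was the only tested collagen gene called lower in dKO without cytokines, at a log2 fold change of -2.43 ± 0.41 (edgeR adjusted p = 0.0116), and with cytokines the value was -1.36 ± 0.44 (adjusted p = 0.0553). Col11a2 (ENSMUSG00000024330, chr17:34039437-34066685) was at 4.65 and 5.19 CPM in WT control, 2.6 and 2.83 in cytokine-treated WT, 8.76 and 10.9 in dKO control and 3.54 and 5.87 in cytokine-treated dKO. Its log2 fold change was 1.00 ± 0.28 (edgeR adjusted p = 0.0457) without and 0.79 ± 0.29 (adjusted p = 0.0722) with cytokines, and the first call was lost in 6 of 8 fits that left out 1 library. The 2 remaining tested fibrillar genes, Col24a1 and Col27a1, did not pass, at log2 fold changes of 0.01 and -0.17 without cytokines and 0.25 and 0.93 with them. Col2a1, the main collagen of cartilage, had at most 11 counts in any library and was not tested.

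**Figure D2:**
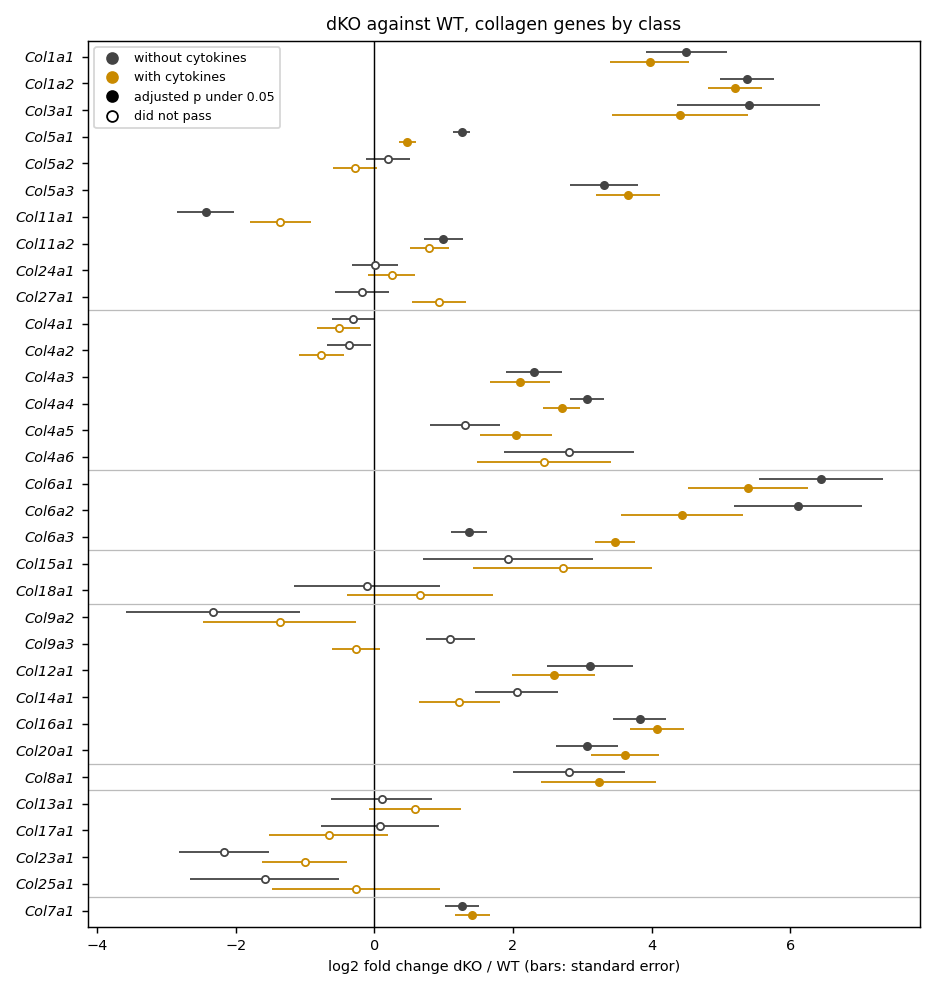
Log2 fold change of dKO over WT for each tested collagen gene, without cytokines (dark) and with cytokines (ochre), grouped by class, with bars for 1 standard error. Filled points passed an adjusted p of 0.05. Without cytokines Col6a1, Col6a2, Col3a1, Col1a2 and Col1a1 lie furthest to the right, Col4a1 and Col4a2 lie slightly left of 0 with open points, and Col11a1 is the only filled point left of 0.

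Basement membrane collagen split into abundant and scarce chains. Col4a1 (ENSMUSG00000031502, chr8:11198423-11312826), which with Col4a2 makes the common form of type IV collagen, was at 800 and 1131 CPM in WT control, 1424 and 1871 in cytokine-treated WT, 590 and 974 in dKO control and 973 and 1337 in cytokine-treated dKO. The control groups overlapped, with a log2 fold change of -0.30 ± 0.31 (edgeR adjusted p = 0.503), and with cytokines the value was -0.51 ± 0.31 (adjusted p = 0.238). Col4a2 had log2 fold changes of -0.37 ± 0.32 (edgeR adjusted p = 0.435) and -0.76 ± 0.32 (adjusted p = 0.113). The RPKM ratio of Col4a1 to Col4a2 was 1.48 and 1.51 in WT control and 1.56 and 1.57 in dKO control.

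Col4a3 and Col4a4, neighbours across the 71-base gap shown above and partners in the type IV network of the kidney filter, were scarce in WT and higher in dKO. Col4a3 (ENSMUSG00000079465, chr1:82586921-82722059) was at 2.55 and 3.3 CPM in WT control, 0.617 and 0.864 in cytokine-treated WT, 15.1 and 13.8 in dKO control and 1.95 and 4.46 in cytokine-treated dKO. Over WT, the log2 fold change was 2.30 ± 0.40 (edgeR adjusted p = 0.0124) without and 2.10 ± 0.44 (adjusted p = 0.0144) with cytokines. Col4a4 (ENSMUSG00000067158, chr1:82448423-82586849) was at 5.95 and 4.85 CPM in WT control, 1.15 and 1.37 in cytokine-treated WT, 55 and 35.5 in dKO control and 8.27 and 8.22 in cytokine-treated dKO. All dKO libraries were above the WT libraries of the same treatment for both genes. The log2 fold change of Col4a4 was 3.07 ± 0.25 (edgeR adjusted p = 0.00152) and 2.7 ± 0.26 (adjusted p = 0.00211), and both calls held in all 8 fits that left out 1 library.

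Col4a5, which joins Col4a3 and Col4a4 in a helix and pairs with Col4a6 elsewhere, passed by edgeR with cytokines but not without them. It (ENSMUSG00000031274, chrX:141475385-141689234) was at 34.9 and 62.7 CPM in WT control, 11.5 and 17.5 in cytokine-treated WT, 166 and 75.9 in dKO control and 75.3 and 44.4 in cytokine-treated dKO. No group of a genotype overlapped the other genotype's under the same treatment. The log2 fold change was 1.31 ± 0.50 (edgeR adjusted p = 0.109) without and 2.05 ± 0.52 (adjusted p = 0.0299) with cytokines. The call was lost with the replicate block (edgeR adjusted p = 0.0554), with no filter (0.105) and without either WT cytokine library or dKO cytokine replicate 1 (up to 0.15). Col4a6 had log2 fold changes of 2.81 ± 0.94 (edgeR adjusted p = 0.0779) and 2.45 ± 0.96 (adjusted p = 0.096). DESeq2 called Col4a5 (adjusted p = 0.0188 without and 6.38e-05 with cytokines) and Col4a6 (adjusted p = 0.0037 and 0.0114) in both comparisons.

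The multiplexins Col15a1 and Col18a1, whose cleaved ends are known to restrain vessel growth, differed more between the dKO replicates than between genotypes. Col18a1 (ENSMUSG00000001435, chr10:77052178-77166548) was at 73.1 and 93.9 CPM in WT control, 70.6 and 116 in cytokine-treated WT, 12.7 and 142 in dKO control and 71.8 and 222 in cytokine-treated dKO. The lowest and the highest control value were both dKO libraries. The log2 fold change was -0.11 ± 1.05 (edgeR adjusted p = 0.95) without and 0.65 ± 1.05 (adjusted p = 0.656) with cytokines. With both dKO replicate 2 libraries left out, the log2 fold change of Col18a1 without cytokines was -2.73, so its value rests on those libraries. Each dKO group then held 1 library. Col15a1 was at 4.43 and 3 CPM in WT control, 1.46 and 2.08 in cytokine-treated WT, 2.86 and 25.4 in dKO control and 2.68 and 20.7 in cytokine-treated dKO. Its control groups overlapped, with a log2 fold change of 1.93 ± 1.22 (edgeR adjusted p = 0.29). The cytokine groups did not overlap, and the value was 2.72 ± 1.29 (edgeR adjusted p = 0.151, DESeq2 adjusted p = 0.0205).

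Type VI collagen had the largest median log2 fold change by genotype of any class, 6.11 without and 4.44 with cytokines over its 3 tested genes. Col6a1 (ENSMUSG00000001119, chr10:76708792-76726168) was at 4.39 and 5.93 CPM in WT control, 2.6 and 3.93 in cytokine-treated WT, 738 and 163 in dKO control and 180 and 94.7 in cytokine-treated dKO. On the log2 scale the fold change was 6.44 ± 0.89 (edgeR adjusted p = 0.00826) without cytokines and 5.39 ± 0.86 (adjusted p = 0.00818) with them. Col6a2 (ENSMUSG00000020241, chr10:76595762-76623630), encoded on the same chromosome and strand as Col6a1, was at 2.47 and 2.43 CPM in WT control, 2.07 and 2.24 in cytokine-treated WT, 283 and 56.7 in dKO control and 64.1 and 29.8 in cytokine-treated dKO. Each dKO library was above every WT library for both genes, and dKO replicate 1 was above replicate 2. The log2 fold change of Col6a2 was 6.11 ± 0.92 (edgeR adjusted p = 0.0106) without and 4.44 ± 0.88 (adjusted p = 0.0146) with cytokines. Without dKO control replicate 1 the log2 fold changes in the control state were 4.97 for Col6a1 and 4.52 for Col6a2.

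Col6a3, the long chain that type VI collagen needs for assembly, changed less. It (ENSMUSG00000048126, chr1:90765923-90843971) was at 8.2 and 7.05 CPM in WT control, 1.59 and 2.75 in cytokine-treated WT, 17 and 22.2 in dKO control and 23.4 and 25.1 in cytokine-treated dKO. The genotypes did not overlap, and the log2 fold change was 1.36 ± 0.26 (edgeR adjusted p = 0.016) without and 3.48 ± 0.29 (adjusted p = 0.00131) with cytokines. The per-length levels of the chains parted: the RPKM ratio of Col6a1 to Col6a3 was 1.46 and 2.3 in WT control and 119 and 20 in dKO control. With cytokines the ratio was 4.48 and 3.9 in WT and 21 and 10.3 in dKO. The ratio of Col6a1 to Col6a2 was 3.38 and 4.65 in WT control and 4.95 and 5.47 in dKO control. Col6a4, Col6a5 and Col6a6, alternatives to that chain, had at most 5 counts in a library and were not tested.

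Of the fibril-associated collagens, Col12a1, Col16a1 and Col20a1 were higher in dKO with and without cytokines. Col12a1 (ENSMUSG00000032332, chr9:79598991-79718831), which binds the surface of type I fibres, was at 42.5 and 17.4 CPM in WT control, 65.3 and 26.3 in cytokine-treated WT, 324 and 194 in dKO control and 272 and 278 in cytokine-treated dKO. In dKO the log2 fold change was 3.11 ± 0.62 (edgeR adjusted p = 0.0208) and 2.59 ± 0.60 (adjusted p = 0.0232), and both calls were lost with both dKO replicate 2 libraries left out. Col16a1 (ENSMUSG00000040690, chr4:130047840-130099283), found near fibres and basement membranes, was at 9.19 and 11.5 CPM in WT control, 4.59 and 6.56 in cytokine-treated WT, 192 and 103 in dKO control and 109 and 78.9 in cytokine-treated dKO. No dKO library came near a WT library. Its log2 fold change was 3.83 ± 0.38 (edgeR adjusted p = 0.00351) and 4.07 ± 0.39 (adjusted p = 0.00235), and both calls held in all 8 fits that left out 1 library. Col20a1 (ENSMUSG00000016356, chr2:180986535-181018363) was at 0.886 and 1.08 CPM in WT control, 0.353 and 0.353 in cytokine-treated WT, 10.3 and 6.32 in dKO control and 5.95 and 2.83 in cytokine-treated dKO. It was scarce throughout, with log2 fold changes of 3.07 ± 0.45 (edgeR adjusted p = 0.00758) and 3.62 ± 0.50 (adjusted p = 0.00447). Col14a1 had log2 fold changes of 2.06 ± 0.60 (edgeR adjusted p = 0.0559, DESeq2 adjusted p = 0.000769) and 1.23 ± 0.58 (edgeR adjusted p = 0.15, DESeq2 adjusted p = 0.0529). Neither Col9a2 nor Col9a3 passed. Col9a1 and Col22a1 had at most 6 counts in a library, and Col19a1 had 0 counts in all 8, which is under a floor of 3 counts in each group (counting error only).

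Col8a1 encodes the short-chain collagen of vessel walls and of the cornea's inner membrane. It (ENSMUSG00000068196, chr16:57624258-57754737) was at 65 and 154 CPM in WT control, 9 and 20 in cytokine-treated WT, 1200 and 335 in dKO control and 178 and 96.6 in cytokine-treated dKO. The genotypes did not overlap within a treatment, and the log2 fold change was 2.81 ± 0.81 (edgeR adjusted p = 0.0546) without and 3.24 ± 0.83 (adjusted p = 0.0308) with cytokines. That call too was lost with the block (edgeR adjusted p = 0.0674), with no filter (0.115) and without the same 3 libraries (up to 0.157). By DESeq2, Col8a1 passed in both comparisons (adjusted p = 0.00626 without and 0.000936 with cytokines). Its partner Col8a2 and Col10a1 had at most 2 counts in a library. Col7a1 (ENSMUSG00000025650, chr9:108953586-108984875), the anchoring fibril collagen, was at 5.06 and 5.09 CPM in WT control, 2.87 and 4.32 in cytokine-treated WT, 13.2 and 11.2 in dKO control and 8.36 and 10.9 in cytokine-treated dKO. All dKO libraries exceeded all WT libraries, with log2 fold changes of 1.27 ± 0.25 (edgeR adjusted p = 0.0176) and 1.42 ± 0.25 (adjusted p = 0.00931).

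Col23a1 (ENSMUSG00000063564, chr11:51289920-51583918), a collagen held in the cell membrane, pointed the other way. It was at 14.2 and 8.53 CPM in WT control, 13.4 and 18.9 in cytokine-treated WT, 1.97 and 3.08 in dKO control and 3.45 and 12.6 in cytokine-treated dKO. No dKO library reached a WT library of the same treatment. The log2 fold change did not pass in the main fit, at -2.17 ± 0.65 (edgeR adjusted p = 0.0584) without and -1.01 ± 0.61 (adjusted p = 0.238) with cytokines. Without cytokines it passed by DESeq2 (adjusted p = 0.00184) and barely by edgeR with the replicate block (adjusted p = 0.04999). The other membrane collagens, Col13a1, Col17a1 and Col25a1, were at no more than 2.18 CPM in any library and did not pass. Col26a1 and Col28a1, which fit no other class, had at most 5 counts in a library.

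The class make-up of collagen RNA therefore differed between the genotypes. Collagen genes took 0.240% and 0.300% of all counts in WT control and 0.691% and 0.412% in dKO control. Summed fibrillar CPM was 546 and 529 in WT control and 3093 and 1164 in dKO control, whereas summed type IV CPM was 1324 and 1867 in WT control and 1183 and 1660 in dKO control. Summed type VI CPM was 15.1 and 15.5 in WT control and 1038 and 242 in dKO control. Without cytokines, fibrillar and type VI sums did not overlap between the genotypes, while type IV sums did. With cytokines the type IV sums were 2202 and 2882 CPM in WT and 1480 and 2019 in dKO, and did not overlap. As shares of collagen RPKM, type IV chains made up 66.9% and 72.1% in WT control and 18% and 45.1% in dKO control, and type VI chains 0.716% and 0.616% against 22.4% and 8.97%. Fibrillar chains made up 22.1% and 16.0% in WT control and 36.2% and 24.9% in dKO control. By mean RPKM, Col4a1 ranked first in WT control at 129, and in dKO control Col3a1 came first at 110, followed by Col4a1 at 105, Col6a1 at 103 and Col8a1 at 98, an order that the spread between the dKO libraries does not resolve. These sums are descriptions and were not tested.

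**Figure D3:**
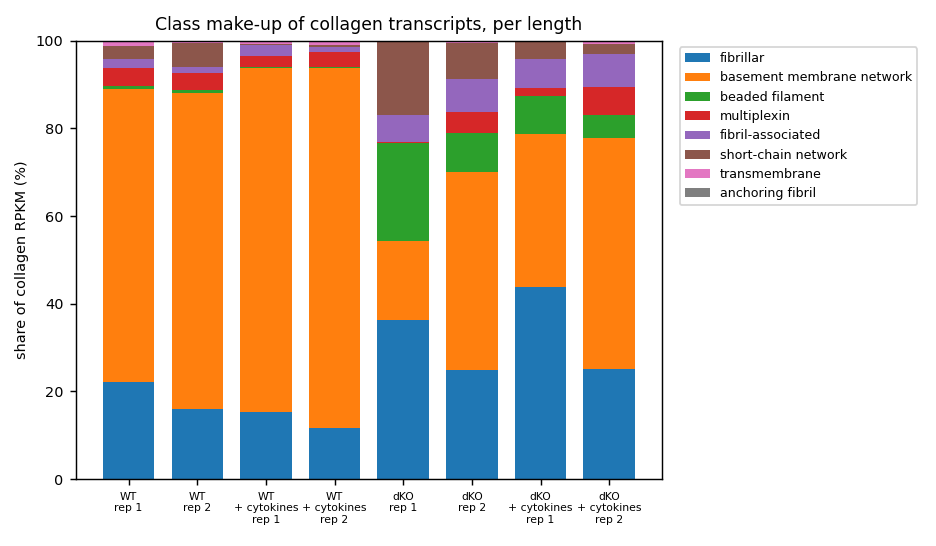
Share of the summed collagen RPKM that each class takes in each library, in percent. The type IV band fills 66.9% to 82.2% of the 4 WT bars and 18% to 52.7% of the 4 dKO bars, and the fibrillar, type VI and fibril-associated bands are each wider in every dKO bar than in any WT bar. Col26a1 and Col28a1, at most 0.0121% of a bar, are not drawn.

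The cytokine response of WT cells ran in different directions within a class. Of the 33 tested genes, 1 rose and 4 fell with IL1B and TNFA in WT (edgeR), where 9.72% of all genes rose and 7.69% fell. The median was -0.18 on the log2 scale for collagen genes and -0.01 for all genes. Col5a1 rose, by 0.94 ± 0.12 on the log2 scale (edgeR adjusted p = 0.00611), with both cytokine libraries at nearly 2-fold the control libraries. The scarce type IV chains Col4a3 and Col4a4 fell, by 1.97 ± 0.44 (adjusted p = 0.0279) and 2.09 ± 0.26 (adjusted p = 0.00545). Col6a3 and Col11a1 fell as well, by 1.81 ± 0.28 (edgeR adjusted p = 0.00979) and 2.02 ± 0.40 (adjusted p = 0.0206). The abundant chains Col4a1 and Col4a2 had log2 fold changes of 0.77 ± 0.31 (edgeR adjusted p = 0.142) and 0.62 ± 0.32 (adjusted p = 0.242), and the type I genes Col1a1 and Col1a2 had 0.29 and 0.41. Only Col4a4 held in all 8 fits that left out 1 library, and calls over all genes fell in each fit without 1 of the WT libraries.

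Replicates of the same number in the same genotype deviated together, so the cytokine comparisons were also fitted with the replicate number as a block. The block was fitted within each genotype and left less information on the spread than the main fit. With the block, 18 of 33 collagen genes passed in WT, 6 higher and 12 lower, where 19.3% of all genes were higher and 18.5% lower. Col4a1 and Col4a2 then rose, by 0.78 ± 0.11 (edgeR adjusted p = 0.00097) and 0.62 ± 0.09 (adjusted p = 0.00135), together with Col3a1, Col5a1, Col5a3 and Col9a3. The 4 less abundant type IV chains, Col4a3 to Col4a6, fell. Col8a1 fell by 2.90 ± 0.27 (edgeR adjusted p = 0.00145 with the block, 0.0619 without it), the largest cytokine response of a tested collagen gene in WT. Col5a2, Col11a1, Col11a2, Col6a3, Col15a1, Col16a1 and Col20a1 also fell. With both dKO replicate 2 libraries left out and no block, 10 genes passed in WT, 2 higher and 8 lower, beside 13.9% and 13.3% of all genes.

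In dKO cells, 1 collagen gene rose and 2 fell with cytokines (edgeR), where 3.50% of all genes rose and 2.06% fell. Medians were -0.28 over the collagen genes and -0.01 over all genes. Col5a3 rose by 2.14 ± 0.43 on the log2 scale (edgeR adjusted p = 0.0427). Col4a3 and Col4a4 fell, by 2.17 ± 0.40 (edgeR adjusted p = 0.0341) and 2.45 ± 0.24 (adjusted p = 0.00677). Col4a4 alone held in all 8 fits that left out 1 library. None of the 3 passed when only the 4 dKO libraries were fitted, where 1 of all genes passed (edgeR adjusted p for Col4a4 = 0.104). On all 8 libraries DESeq2 called 9, 3 higher and 6 lower, beside 6.87% and 4.93% of all genes. Except without dKO cytokine replicate 2, fewer collagen genes passed in each fit that left out 1 library. Fewer of all genes passed in all 8 of these fits. Col1a1, Col1a2 and Col3a1, high in dKO, had log2 fold changes of -0.23 ± 0.50, 0.24 ± 0.32 and -0.21 ± 0.85 (edgeR adjusted p from 0.718 to 0.917).

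With the replicate block, 13 collagen genes passed in dKO, 3 higher and 10 lower, where 12.7% of all genes were higher and 11.3% lower. Col4a1 rose by 0.59 ± 0.11 (edgeR adjusted p = 0.00647) with Col5a3 and Col27a1. Col4a3 to Col4a6 fell, Col4a5 by 0.96 ± 0.11 (adjusted p = 0.000727) and Col4a6 by 1.21 ± 0.18 (adjusted p = 0.00258), and Col8a1 fell by 2.28 ± 0.25 (adjusted p = 0.0044). Col6a2 fell by 1.56 ± 0.33 (edgeR adjusted p = 0.0484 with the block, 0.209 without it), and Col5a2, Col11a2, Col16a1 and Col20a1 completed the list. With both dKO replicate 2 libraries left out, 6 genes passed (1 higher and 5 lower, beside 5.03% and 3.20% of all genes). That setting was chosen after the data were seen and compared 1 dKO library with 1 other. Its spread came from the WT libraries alone, so the count cannot show a response of dKO cells beyond replicate spread. The log2 fold changes there were -2.03 for Col6a1 and -2.14 for Col6a2. Between the dKO replicates, Col6a2 differed 4.99-fold without and 2.15-fold with cytokines.

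**Figure D4:**
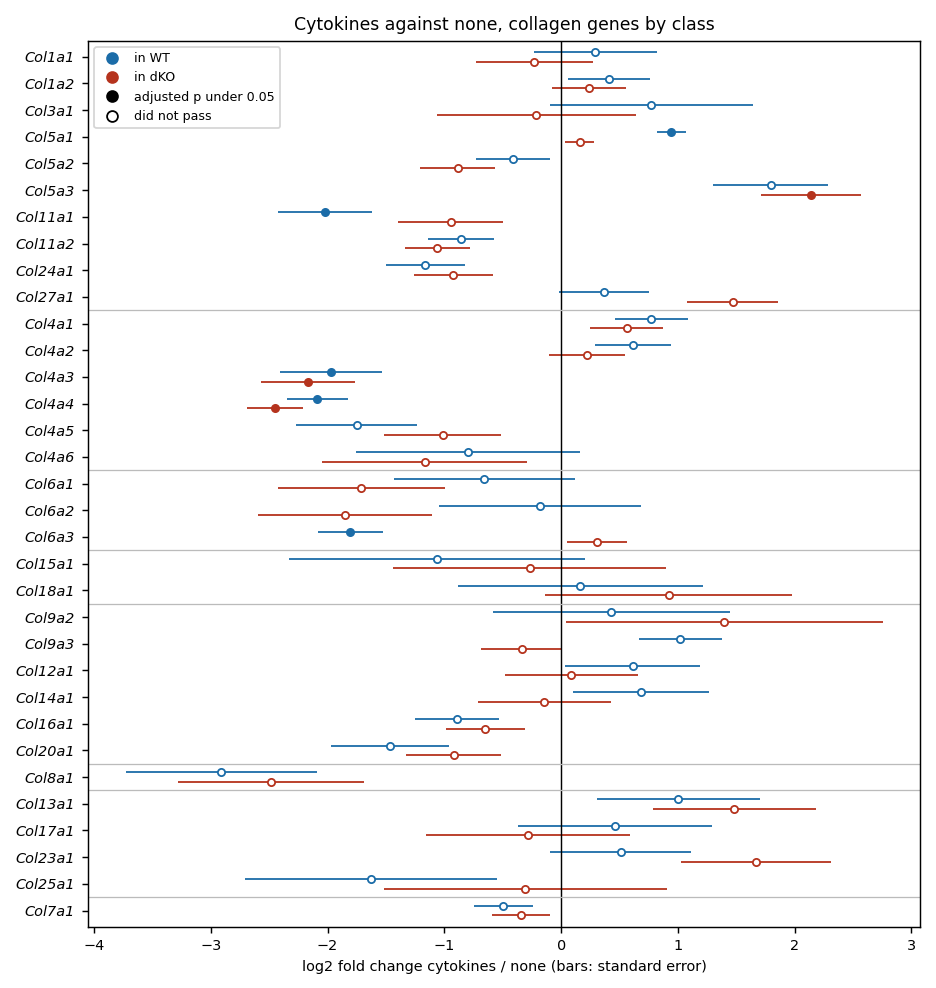
Log2 fold change with cytokines over none for each tested collagen gene, in WT (blue) and in dKO (red), from the fit without a replicate block, grouped by class, with bars for 1 standard error. Filled points passed an adjusted p of 0.05. Col4a3 and Col4a4 are filled and left of 0 in both genotypes, and Col6a3 is filled and left of 0 in WT and open and right of 0 in dKO.

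The difference of the cytokine response between the genotypes was tested directly. No collagen gene passed (0 of 33, edgeR), and 0% of all 15698 genes passed. At an unadjusted p under 0.05 there were 3 collagen genes and 1683 genes in all, and DESeq2 called 2 collagen genes and 383 genes, 1.01% of all with a positive and 1.43% with a negative difference. The 2 were Col6a3 and Col5a1. For Col6a3, both WT cytokine libraries were below and both dKO cytokine libraries above their controls, and the difference was 2.11 ± 0.37 on the log2 scale (edgeR adjusted p = 0.187, DESeq2 adjusted p = 0.000105). For Col5a1 it was -0.79 ± 0.17 (edgeR adjusted p = 0.225, DESeq2 adjusted p = 0.0115). With the replicate block 3 collagen genes passed, 2 with a positive and 1 with a negative difference, as did 3.24% and 2.80% of all genes. They were Col6a3 at 2.12 ± 0.31 (edgeR adjusted p = 0.0111), Col5a1 at -0.78 ± 0.12 (adjusted p = 0.0127) and Col4a5 at 0.77 ± 0.16 (adjusted p = 0.0321). Without both dKO replicate 2 libraries, 1 gene passed, where 0.504% of all genes passed with a negative and 0.683% with a positive difference. It was Col6a2, at a difference of -1.93. Each dKO group then held 1 library and the spread came from the WT libraries alone, so this call does not cover the spread between dKO libraries.

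Genes that make, cross-link, bind and remove collagen were read from a list of 50 in 7 roles, 48 of which were tested. Without cytokines, 20 were higher in dKO and 2 lower (edgeR), with a median log2 fold change of 0.61, and with cytokines 24 were higher and 3 lower, with a median of 0.75. Both higher counts include Itga11, which met the low-count filter only through its dKO libraries. Of all genes, 13.4% were higher and 9.66% lower without cytokines, and 18.6% and 15.4% with them. The first count of 22 fell in every fit that left out 1 library. The falls were largest without either WT control library and without dKO control replicate 1. The second count of 27 fell most without WT cytokine replicate 1. It also fell without WT cytokine replicate 2, either dKO cytokine library or either WT control library. Calls over all genes fell in the same fits, except that without cytokines they rose slightly without dKO control replicate 2 or either dKO cytokine library. With cytokines against none, 11 genes rose and 5 fell in WT, where 9.72% of all genes rose and 7.69% fell, and 7 rose and 2 fell in dKO, where 3.50% rose and 2.06% fell. With the replicate block the totals were 36 in WT, beside 19.3% and 18.5% of all genes, and 22 in dKO, beside 12.7% and 11.3%. Without the block, the WT total fell most when 1 of the 4 WT libraries was left out, as did calls over all genes. It was 25 when only those 4 were fitted, where 4585 of all genes passed. The dKO total, like calls over all genes, fell in every fit that left out 1 library, and least without dKO control or cytokine replicate 2. It was 0 when only the 4 dKO libraries were fitted, where 1 of all genes passed. Of the genes named below, P4ha3, Pcolce2 and Loxl1 held their higher level in dKO control in all 8 fits that left out 1 library.

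Of 10 genes for prolyl hydroxylation, the step that stabilises the helix, 5 were higher and 1 lower in dKO control. P4ha3, a catalytic chain of prolyl 4-hydroxylase, was at 2.22 and 2.73 CPM in WT control, 0.661 and 0.982 in cytokine-treated WT, 21 and 23.2 in dKO control and 4.68 and 7.69 in cytokine-treated dKO. It was higher in dKO by 3.16 ± 0.31 (edgeR adjusted p = 0.0027). P3h2, which adds the rarer 3-hydroxyl groups found in type IV collagen, was at 187 and 159 CPM in WT control, 23.2 and 27.1 in cytokine-treated WT, 33.7 and 55.7 in dKO control and 6.9 and 13.6 in cytokine-treated dKO. It was lower in dKO at a log2 fold change of -1.95 ± 0.37 (edgeR adjusted p = 0.0172), and it fell with cytokines by 2.78 ± 0.38 in WT (adjusted p = 0.00838). Another gene covers 28.4% of its exon bases on the opposite strand, so the P3h2 counts are uncertain. Colgalt1, which adds galactose to hydroxylysine, was the 1 called gene of 5 in its role, at 0.36 ± 0.09 (edgeR adjusted p = 0.0329). It was at 150 and 160 CPM in WT control, 267 and 281 in cytokine-treated WT, 194 and 203 in dKO control and 282 and 278 in cytokine-treated dKO. Its exons also share 11.4% of their bases with another gene, and the call was lost in 6 of 8 fits that left out 1 library.

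Of 6 chaperone and export genes, 2 were higher in dKO control. Creb3l1, a transcription factor of secretory cells, was at 67.5 and 63 CPM in WT control, 50.4 and 53.6 in cytokine-treated WT, 151 and 104 in dKO control and 122 and 98.8 in cytokine-treated dKO, a log2 fold change of 0.97 ± 0.19 (edgeR adjusted p = 0.0172) without cytokines. Fkbp14, a proline isomerase of the endoplasmic reticulum, was at 48.4 and 51.1 CPM in WT control, 43.9 and 46.5 in cytokine-treated WT, 77.4 and 64.9 in dKO control and 133 and 102 in cytokine-treated dKO. Its values without cytokines did not overlap, at 0.52 ± 0.15 (edgeR adjusted p = 0.0503), and with cytokines it was higher in dKO by 1.38 ± 0.15 (adjusted p = 0.00274).

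Removal of the propeptides, which lets fibrillar collagen assemble, was the role with the largest share of calls: 5 of 7 tested genes were higher in dKO control and 0 lower. By DESeq2 the counts were the same (15.4% of all genes were higher and 13.2% lower), and 5 had an unadjusted edgeR p under 0.05. Pcolce2, an enhancer of the C-propeptide protease, was at 0.812 and 1.96 CPM in WT control, 0.882 and 0.982 in cytokine-treated WT, 18.3 and 36.1 in dKO control and 19.9 and 35.2 in cytokine-treated dKO. The genotypes were far apart, with a log2 fold change of 4.28 ± 0.57 (edgeR adjusted p = 0.00675) without cytokines. Adamts14, an N-propeptide protease, was at 0.997 and 1.52 CPM in WT control, 3.13 and 2.75 in cytokine-treated WT, 1.43 and 2.49 in dKO control and 9.45 and 6.8 in cytokine-treated dKO, and rose with cytokines in dKO by 2.04 ± 0.37 (edgeR adjusted p = 0.0326), a call kept in 2 of 8 fits that left out 1 library.

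Of 7 cross-linking and assembly genes, 2 were higher and 1 lower in dKO control. Loxl1, a lysyl oxidase relative better known for elastic fibres, was at 0.997 and 2.6 CPM in WT control, 0.661 and 0.942 in cytokine-treated WT, 221 and 131 in dKO control and 227 and 148 in cytokine-treated dKO. Its log2 fold changes by genotype were 6.60 ± 0.57 (edgeR adjusted p = 0.00268) without and 7.85 ± 0.62 (adjusted p = 0.00166) with cytokines. Loxl4, another relative, was at 4.69 and 4.89 CPM in WT control, 24.7 and 17.2 in cytokine-treated WT, 3.44 and 4.74 in dKO control and 2.5 and 7.51 in cytokine-treated dKO. It rose with cytokines in WT by 2.13 ± 0.50 (edgeR adjusted p = 0.0341), a call lost in 5 of 8 fits that left out 1 library, and in dKO the value was 0.29 ± 0.50 (adjusted p = 0.785). The difference of the 2 responses did not pass (-1.84 ± 0.70, edgeR adjusted p = 0.432).

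Of 7 receptors, 2 were higher in dKO control, 1 of them Itga11, which met the low-count filter only through its dKO libraries. Itga11, a collagen-binding integrin chain of fibroblasts, had 0 counts in WT control and 103 counts over both dKO control libraries, which is at least 42.0-fold higher if the WT group is set at its floor of 3 counts. With cytokines the counts were 44 in dKO and 1 in WT, and scaled to library size their ratio was 47.4 (95% counting interval 8.08 to 1916). Itga2, the integrin chain by which platelets bind collagen, was at 2.51 and 2.33 CPM in WT control, 29.2 and 27.8 in cytokine-treated WT, 1.97 and 7.19 in dKO control and 14.6 and 24.6 in cytokine-treated dKO. It rose with cytokines in WT by 3.56 ± 0.61 (edgeR adjusted p = 0.015), a call kept in 4 of 8 fits that left out 1 library. Of 6 tested uptake and degradation genes, 3 were higher in dKO control. Mmp9, a gelatinase that also cuts type IV collagen, was at 0.332 and 0.337 CPM in WT control, 33.3 and 30.5 in cytokine-treated WT, 3.93 and 1.41 in dKO control and 74.5 and 84.3 in cytokine-treated dKO. It rose with cytokines in both genotypes, by 6.55 ± 0.52 in WT (edgeR adjusted p = 0.00235) and 4.90 ± 0.44 in dKO (adjusted p = 0.00664), and was higher in dKO control by 2.97 ± 0.53 (adjusted p = 0.0147).

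**Figure D5:**
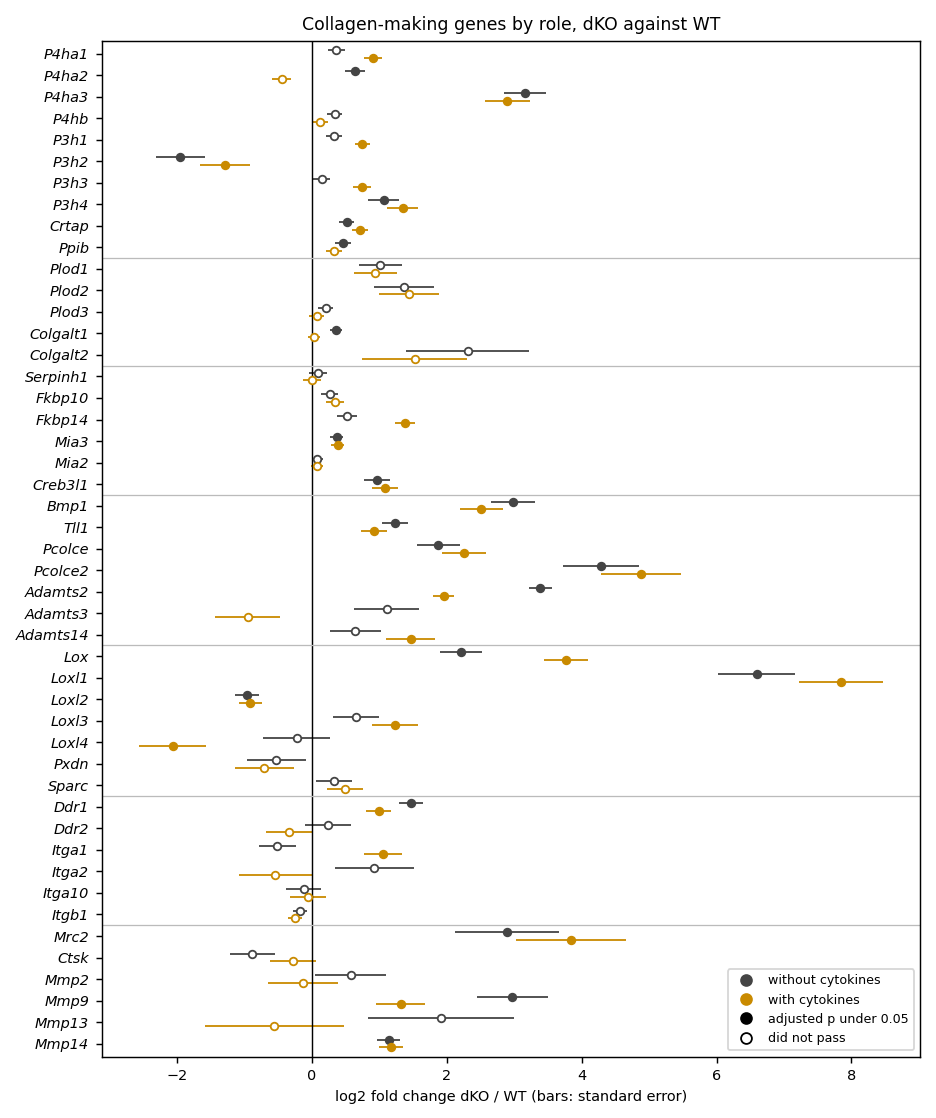
Log2 fold change of dKO over WT for 47 tested genes that make, bind or remove collagen, without (dark) and with cytokines (ochre), grouped by role from prolyl hydroxylation at the top to uptake and degradation at the bottom, with bars for 1 standard error and filled points for an adjusted p under 0.05. Itga11 is not drawn because it had 0 counts in WT control. Loxl1 lies furthest right, followed by Pcolce2, and P3h2 is filled and left of 0 in both comparisons.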

How the data were processed

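The authors deposited 1 table of raw read counts per Ensembl gene for 8 libraries of polyadenylated RNA. The submitters' processing notes name STAR 2.7.6a, FastQC 0.11.5 and the build GRCm38, with no role. How reads were counted, with which annotation and strand setting, is not given in the sources used here, and per the labels' protocols an unstranded or a stranded kit was used, so genes that overlap on opposite strands may share counts. For collagen genes, no other gene that reached 1 CPM in a library covers more than 1.54% of the exon bases, on either strand.

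Groups and replicate numbers come from the labels. In R 4.3.3, edgeR 4.0.16 was fitted to the deposited counts of all 8 libraries (TMM scaling, a filter on low counts at 10 counts, or 0.418 CPM, in 2 libraries, robust quasi-likelihood fit, 1 coefficient per group, 4 residual degrees of freedom). Each of 5 contrasts was tested two-sided, adjusted by Benjamini-Hochberg over 15698 genes and read at 0.05. The biological coefficient of variation was 24.3%. CPM uses TMM-scaled totals, and RPKM uses exon lengths of GENCODE M21 (GRCm38), which also gave the coordinates. The fit was tried on simulated data drawn with 1 spread for all genes and no paired libraries. That run does not cover the spread of the collagen genes between replicates. Counting error is all that floors and intervals cover, because PCR copies of 1 molecule cannot be recognised.

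The alternatives were DESeq2 1.42.0, RLE scaling, no filter, only the 4 libraries compared, a replicate block, and each library left out. Same-numbered libraries of a genotype deviated together across genes (correlation 0.434 in WT and 0.689 in dKO, and 0.0168 to 0.134 across genotypes), and Xist and Ddx3y also matched within a number, so same-numbered libraries of a genotype were treated as pairs; the labels do not state this. Members, classes, lists and tests were chosen with earlier results of these data known. Values per library are given for collagen genes that passed in any contrast with a group mean of 1 CPM or more, for the most abundant member of each class, and for the most changed collagen-making gene of each role by genotype and by cytokines. Others named were chosen after their values were seen.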

Additional observations from a re-analysis of the deposited data

Results flagged for a closer look

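For 2 collagen genes the libraries of the genotypes moved in opposite directions with cytokines. Col6a3 was lower with cytokines in both WT libraries and higher in both dKO libraries than in every control library of the same genotype, and the difference of the responses was 2.11 on the log2 scale (SE 0.37, unadjusted p = 0.000973, edgeR adjusted p = 0.187). DESeq2 gave an adjusted p of 0.000105 for the same difference. Col9a3, a chain of fibril-associated type IX collagen, was at 1.11 and 0.64 CPM in WT control, 1.94 and 1.61 in cytokine-treated WT, 1.74 and 2 in dKO control and 1.41 and 1.55 in cytokine-treated dKO. Its difference was -1.36 (SE 0.50, unadjusted p = 0.0316, edgeR adjusted p = 0.415, DESeq2 adjusted p = 0.498), at levels near 1 CPM.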

How the results depend on the processing

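No called collagen value changed direction under any alternative run. Of 560 values of called collagen genes under the alternatives, 461 stayed past the threshold and 99 did not, 81 of these with 1 library left out. Of 1707 values of comparisons that had not passed, 98 passed under an alternative and 98 changed sign. Collagen calls by genotype ranged from 4 to 18 without cytokines and from 8 to 17 with them when 1 library was left out. In WT, the 5 cytokine calls became 10 with DESeq2, 11 with only the 4 libraries compared, 18 with the replicate block and 10 without both dKO replicate 2 libraries (chosen after the data were seen), and ranged from 1 to 7 with 1 library left out. In dKO, the 3 calls became 9, 0, 13 and 6 in the same order, and ranged from 1 to 3 with 1 library left out. The 6 came from a fit with 1 library in each dKO group, where the spread came from the WT libraries alone. For the difference of the responses, the 0 calls became 2 with DESeq2, 1 with no filter and 3 with the replicate block, and did not change with 1 library left out. With 1 library of the compared groups left out, calls over all genes also fell in most fits. The cause was not tested.

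The numbers pair no libraries across genotypes. A replicate block over all libraries gave 18 collagen calls without cytokines, with all 16 kept, and 18 with cytokines, of which 14 were shared. In the second comparison Col4a5 and Col8a1 no longer passed, while Col4a1, Col4a2 and Col11a1 were lower and Col11a2 higher in dKO. With total counts in place of TMM scaling, the WT control sums were 601 CPM for fibrillar genes (537 with TMM) and 17.1 CPM for type VI genes (15.3 with TMM). With 2 libraries a group and 4 residual degrees of freedom, leaving out 1 library removes much of the information on spread, and 11 collagen genes were too scarce to test.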
